A study of Macaca fascicularis with 4 samples.

Results

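The homeobox, T-box and GATA genes described here are transcription factors that give cells their place and lineage in the embryo and that often stay active in adult tissue. They were chosen by name, as every gene of the files whose symbol belongs to the HOX clusters A to D or to the TBX, IRX, GATA, MEIS, PBX, PITX, sine oculis (SIX4 and relatives), MEOX or EMX families, or is SHOX2. This gave 57 of 13982 genes: 25 HOX genes, 8 T-box genes, 5 GATA genes, 3 genes each of the PBX, MEIS, PITX and IRX families, SIX2, SIX4 and SIX5 of the sine oculis family, 2 MEOX genes, EMX2 and SHOX2. Counts came from full-length RNA libraries of muscle, oWAT, sWAT and liver of the cynomolgus monkey (Macaca fascicularis), with 1 library per tissue made from the pooled RNA of 5 monkeys. WAT usually stands for white adipose tissue; what the letters o and s stand for is not written out in the labels, which also give no treatment, age or site of the muscle sample.

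HOX genes lie in clusters, and in the embryo their order along a cluster follows the head-to-tail order in which they are switched on: low numbers act towards the head, high numbers towards the tail and the far end of the limb. PBX and MEIS proteins bind DNA together with HOX proteins. T-box and GATA factors mark limb, heart, body wall, gut and blood lineages, and PITX and sine oculis factors act in muscle formation. Transcripts of such regulators are usually scarce.

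A library without replicates allows no test between tissues, so folds are ratios of counts scaled to the library total, with exact 95% intervals that cover counting error only. A gene was called higher in a library where it had at least 10 counts there and the lower bound of the fold was above 2. Library totals were 439872 counts in muscle, 396797 in oWAT, 383896 in sWAT and 437587 in liver. The 57 genes together took 642 counts in muscle, 328 in oWAT, 310 in sWAT and 180 in liver, or 0.146%, 0.0827%, 0.0808% and 0.0411% of the library in that order. Of the 57, 41 had a count in muscle, 40 in oWAT, 37 in sWAT and 15 in liver. Counts were low: 17 members reached 10 counts in any library (29.8%, against 59.2% of all genes), and the median member had 6 counts over the 4 libraries, against 33 for all genes. Where a gene had 0 counts, a level of up to 3 counts cannot be told from it, which is 6.82 counts per 1000000 (CPM) in muscle, 7.56 in oWAT, 7.81 in sWAT and 6.86 in liver. Defining markers fitted the labels: ADIPOQ, the adipokine adiponectin, reached 915 (oWAT) and 1117 (sWAT) counts, with 43 in muscle and 1 in liver, ACTA1 (skeletal actin) 15827 in muscle and ALB (albumin) 61515 in liver. In pooled tissue RNA, fewer cells of a type and less RNA per cell cannot be told apart.

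**Figure D1:**
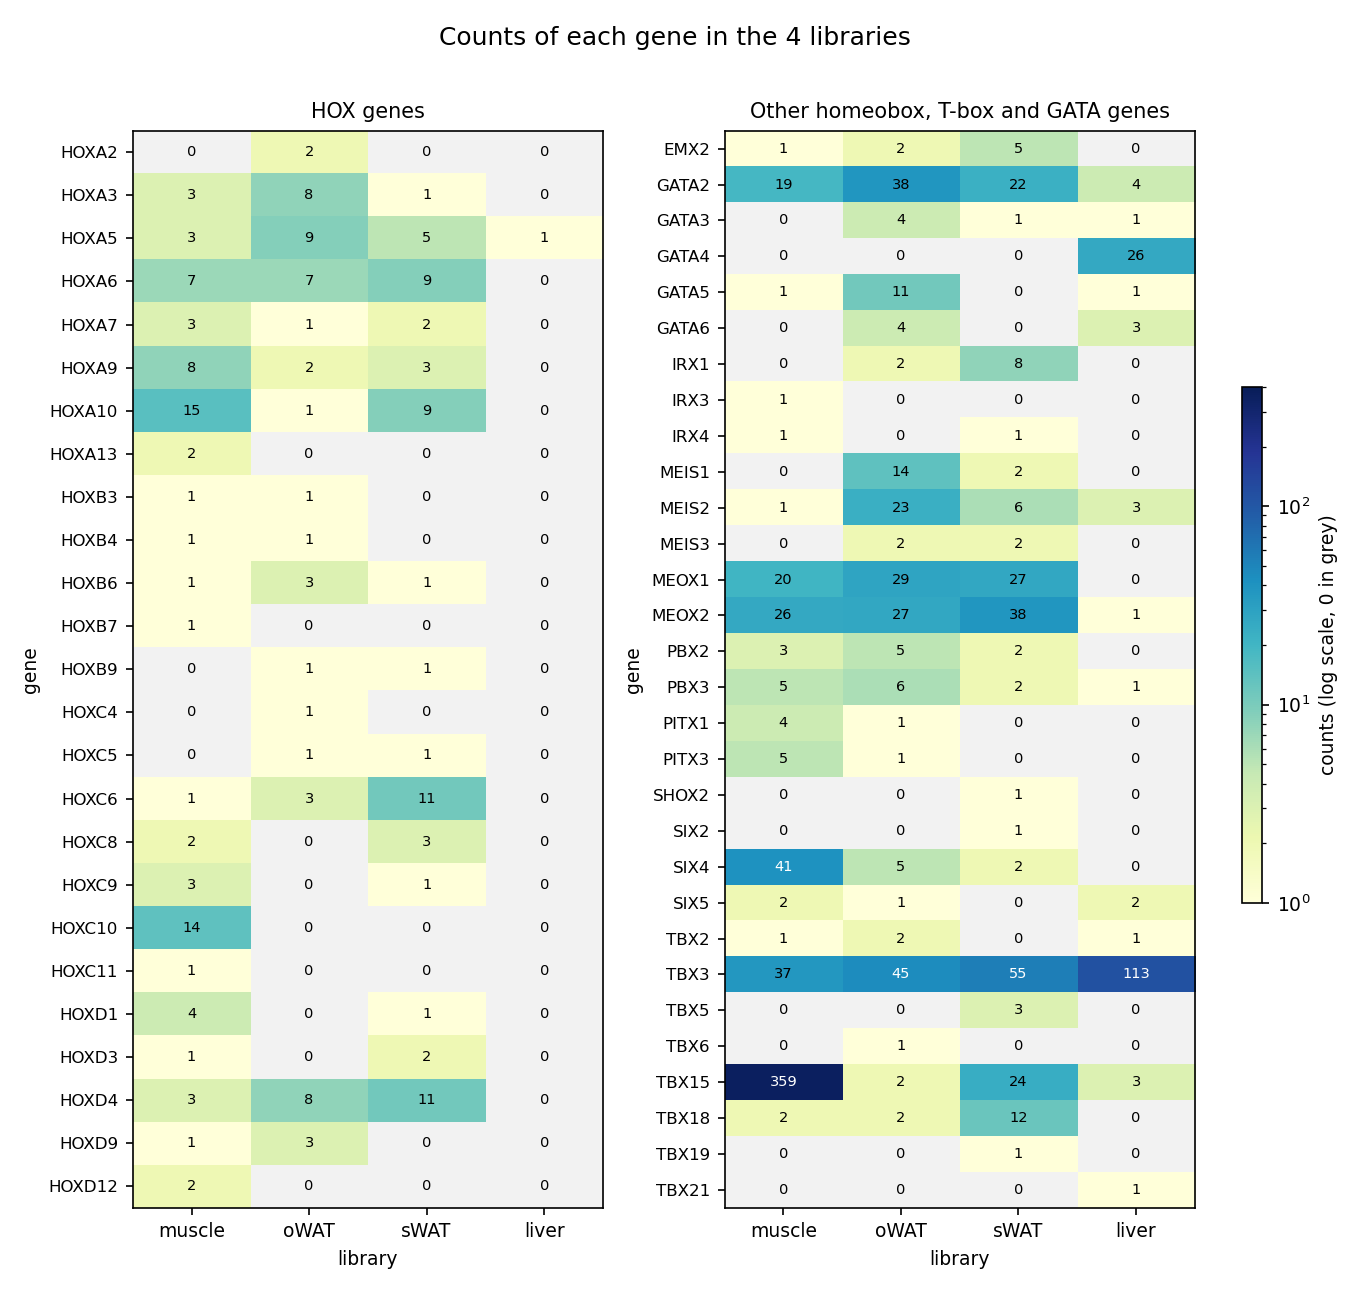
Counts of 55 of the genes in the muscle, oWAT, sWAT and liver libraries (columns), with 1 row per gene, the count printed in each cell and the colour on a log scale; grey is 0. The liver column is grey for all HOX genes but HOXA5, and TBX15 in muscle holds the highest count, 359.

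Liver differed from the other tissues in the sum of the HOX genes. The 25 HOX genes summed to 77 counts in muscle, 52 in oWAT and 61 in sWAT, while liver had 1, a HOXA5 count. In CPM these sums were 175 in muscle (exact Poisson interval 138 to 219), 131 in oWAT (97.9 to 172) and 159 in sWAT (122 to 204), with 2.29 in liver (0.0579 to 12.7). The folds over liver were 76.6 in muscle (13.3 to 3064), 57.4 in oWAT (9.85 to 2308) and 69.5 in sWAT (12.02 to 2791). The 3 non-liver libraries each held many HOX genes at a few counts: 21 of the 25 had a count in muscle, 16 in oWAT and 15 in sWAT. Among these 3, the HOX sum was 1.34-fold in muscle over oWAT (0.927 to 1.94), 1.10-fold in muscle over sWAT (0.777 to 1.57) and 0.825-fold in oWAT over sWAT (0.558 to 1.21), so all of these intervals held 1. With TMM (trimmed mean of M-values) scaling the first of them became 1.97 (1.37 to 2.86) and the second 1.47 (1.03 to 2.09).

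Which HOX genes made up the sum differed between muscle and fat. HOX genes were grouped by number after their values were seen, so the shares are a description. Genes numbered 9 to 13 took 46 of 77 HOX counts in muscle (59.7%, exact binomial interval 47.9 to 70.8), 7 of 52 in oWAT (13.5%, 5.59 to 25.8) and 14 of 61 in sWAT (23.0%, 13.2 to 35.5). Genes numbered 4 to 8 took 28.6% in muscle (18.85 to 40), 65.4% in oWAT (50.9 to 78.03) and 70.5% in sWAT (57.4 to 81.5). Muscle was thus weighted to high numbers and both fat libraries to the middle of the clusters. How reads shared by overlapping HOX genes, such as HOXC10 and HOXC6, were assigned is not given, so the shares are uncertain to that extent. The lowest numbers, 1 to 3, gave 9 counts in muscle, 11 in oWAT and 4 in sWAT. Much of the muscle weight came from HOXA10 and HOXC10: without them the share of numbers 9 to 13 was 35.4% in muscle (22.2 to 50.5), 11.8% in oWAT (4.44 to 23.9) and 9.62% in sWAT (3.20 to 21.0).

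**Figure D2:**
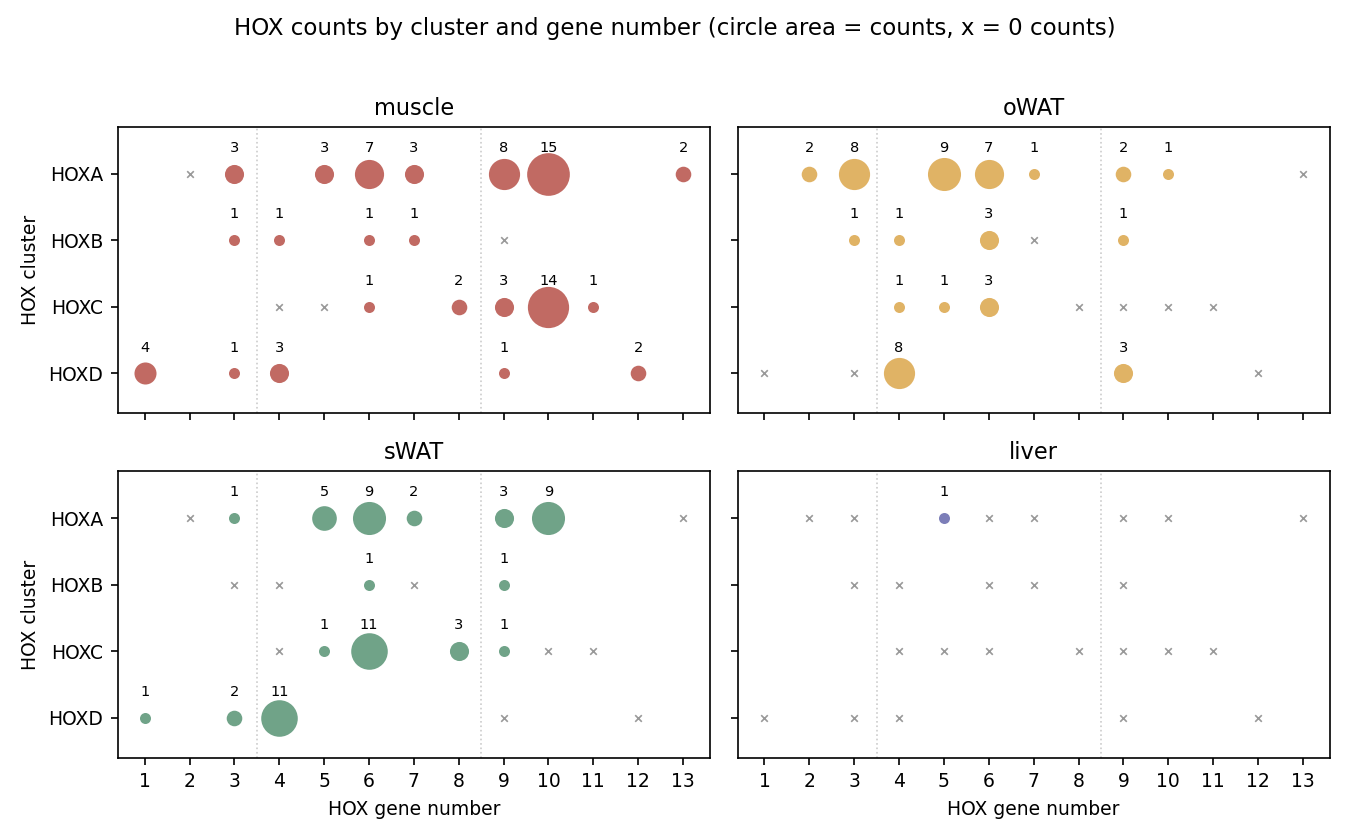
HOX counts in each library, placed by cluster (vertical axis, HOXA to HOXD) and gene number (horizontal axis); circle area and the printed figure give the counts, a cross marks a gene of the files with 0 counts in that library, and an empty place is a gene with no entry. Muscle has its largest circles at HOXA10 (15) and HOXC10 (14), oWAT at HOXA5 (9), sWAT at HOXC6 and HOXD4 (11 each), and liver has 1 count.

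**Figure D3:**
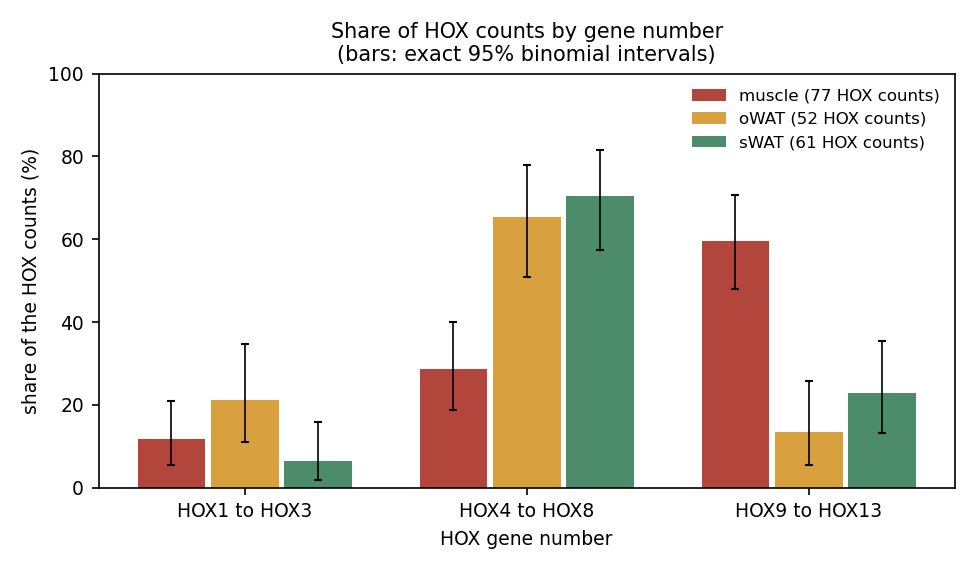
Share of each library's HOX counts (vertical axis, %) held by HOX genes numbered 1 to 3, 4 to 8 and 9 to 13, in muscle, oWAT and sWAT; error bars are exact 95% binomial intervals. Numbers 9 to 13 hold 59.7% in muscle, 13.5% in oWAT and 23.0% in sWAT.

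HOXC10, a HOX gene of the lumbar trunk and hindlimb in mouse, was listed in muscle alone, with 14 counts there against 0 in oWAT, sWAT and liver. It was at least 4.21-fold higher in muscle than in oWAT, at least 4.07-fold than in sWAT and at least 4.64-fold than in liver. These values put 3 counts in place of the 0, as does every at-least fold given below. They leave out the counting error of the higher library, and the exact lower bounds are smaller, 2.99, 2.90 and 3.30. With a 99% interval HOXC10 was no longer among the members called higher in muscle than in each other library. HOXA10, which patterns the lumbar region and the upper limb segment in mouse, had 15 counts in muscle, 1 in oWAT, 9 in sWAT and 0 in liver. Muscle exceeded oWAT 13.5-fold (2.08 to 570) and liver at least 4.97-fold (lower bound 3.57). Muscle over sWAT was 1.45 (0.596 to 3.77), so muscle and sWAT could not be separated. The ratio of oWAT to sWAT was 0.108 (0.00245 to 0.776), without a call, as sWAT had 9 counts and the lower bound of sWAT over oWAT was 1.29. The 1 count in oWAT was within the limit of 3 counts.

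HOXC6, a gene of the thoracic level in mouse, had 3 counts in oWAT, against 11 in sWAT. Muscle had 1 and liver 0. Its ratio of oWAT to sWAT was 0.264 (0.0473 to 0.9989), which passed no call, while sWAT was at least 4.18-fold higher than liver (lower bound 2.86). HOXD4, which acts at the level of the neck vertebrae in mouse, had 8 counts in oWAT, 11 in sWAT, 3 in muscle and 0 in liver. It was called over liver in sWAT, at least 4.18-fold (lower bound 2.86), and its ratio of oWAT to sWAT was 0.704 (0.246 to 1.92). With TMM scaling the lower bound of both genes over liver was 1.58, and the calls were lost.

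The other 21 HOX genes stayed under 10 counts in every library. HOXA6 had 7 counts in muscle, 7 in oWAT and 9 in sWAT, an even spread, and HOXA5 3, 9 and 5 in the same order. HOXA9 had 8 in muscle against 2 in oWAT and 3 in sWAT. HOXA3, a gene of the neck and throat level in mouse, had 8 in oWAT against 1 in sWAT, a ratio of 7.74 (1.04 to 343), and 3 in muscle. HOXA7, HOXB3, HOXB4, HOXB6, HOXB9, HOXC5, HOXC8, HOXC9, HOXD1, HOXD3 and HOXD9 each had 4 counts or fewer in any library. HOXA13, HOXB7, HOXC11 and HOXD12 were listed in muscle alone and HOXA2 and HOXC4 in oWAT alone, with 1 or 2 counts each, which the limit of 3 counts does not separate from 0 elsewhere.

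By cluster, HOXA genes gave 41 counts in muscle, 30 in oWAT and 29 in sWAT. HOXC genes gave 21 in muscle, 5 in oWAT and 16 in sWAT, a ratio of oWAT to sWAT of 0.302 (0.0866 to 0.864) and of muscle to oWAT of 3.79 (1.39 to 12.9). The HOXC sum in oWAT thus lay below those of muscle and sWAT. HOXC10 gave 14 of the 21 muscle counts and HOXC6 11 of the 16 sWAT counts, so single genes led both differences. HOXD gave 11, 11 and 14 in muscle, oWAT and sWAT, and HOXB 4, 6 and 2. Genes within a cluster can share exons and reads: in RefSeq's gene spans (assembly T2T-MFA8v1.1) 13 of the 25 HOX genes overlap another of them, and the span of HOXC10 overlaps HOXC4, HOXC5, HOXC6, HOXC8 and HOXC9. How the authors assigned such reads is not given, so the split within HOXC, HOXA3 to HOXA6, HOXB3 with HOXB4 and HOXD3 with HOXD4 is uncertain.

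Among the partners of HOX proteins, PBX2 had 2 to 5 counts and PBX3 2 to 6 in the non-liver libraries, against 0 and 1 in liver.

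MEIS genes were concentrated in oWAT. For MEIS1, known for its part in blood stem cells and in limb patterning, oWAT gave 14 counts and sWAT 2, muscle and liver 0. For its close relative MEIS2, oWAT gave 23 and sWAT 6, muscle 1 and liver 3. Both were called in oWAT over muscle, MEIS1 at least 5.17-fold (lower bound 3.68) and MEIS2 25.5-fold (4.14 to 1050). Over liver, MEIS1 was at least 5.15-fold higher in oWAT (lower bound 3.66) and MEIS2 8.45-fold (2.55 to 44.0), but with TMM scaling the lower bounds were 1.82 and 1.27 and the calls were lost. Over sWAT, the ratios in oWAT were 6.77 for MEIS1 (1.56 to 61.4) and 3.71 for MEIS2 (1.47 to 11.1), above 1 but short of a call. MEIS3 had 2 counts in each fat library. The oWAT library also held the mesothelial markers, 7 of 8 with counts (ITLN1 964, WT1 277) and a sum of 3929 CPM, against 5.21 CPM in sWAT, where 7 of the 8 were at 0; their part in the MEIS, GATA5 and other values of oWAT was not tested.

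MEOX1 and MEOX2, homeobox genes of the somites, from which trunk and limb muscle arise, were the 2 members called in muscle, oWAT and sWAT alike over liver. MEOX1 had 20 counts in muscle, 29 in oWAT and 27 in sWAT; liver had 0. MEOX2, which is also known from blood vessel endothelium, had 26 in muscle, 27 in oWAT and 38 in sWAT; liver had 1. Among the 3 non-liver libraries neither gene was called: oWAT over sWAT was 1.04 for MEOX1 (0.594 to 1.82) and 0.687 for MEOX2 (0.404 to 1.16). Muscle over oWAT was 0.622 for MEOX1 (0.334 to 1.14) and 0.869 for MEOX2 (0.487 to 1.55), and muscle over sWAT was 0.647 (0.344 to 1.20) and 0.597 (0.348 to 1.01). The sum of both genes was lower in muscle than in sWAT, 0.618-fold (0.414 to 0.915), with an interval that held 1 under TMM scaling (0.823, 0.551 to 1.22). Over liver, MEOX1 was at least 6.63-fold higher in muscle, at least 10.7-fold in oWAT and at least 10.3-fold in sWAT, with lower bounds of 4.91, 8.13 and 7.79. MEOX2 was 25.9-fold higher in muscle (4.25 to 1060), 29.8-fold in oWAT (4.91 to 1219) and 43.3-fold in sWAT (7.32 to 1755). Over all genes, 11.8% of 4616 met the same rule, and 2 of the 5 members with at least 10 counts in all 3 libraries. The sums of endothelial markers were also higher outside liver, 1055 CPM in muscle, 2195 in oWAT and 3850 in sWAT, over 416 in liver, as were those of fibroblast markers (2217, 4844 and 5069, over 121). Over liver, 3 of the 4 endothelial markers with at least 10 counts in muscle were called, where 23% of all genes were. Each fat library had 4 of 6 called, where 25.8% of all genes in oWAT and 24.2% in sWAT were. STAB2 went the other way and was called higher in liver than in each other library, and KDR had 5 counts in muscle against 17 in liver. All 7 endothelial markers had counts in oWAT and liver, and all but STAB2 in muscle and sWAT. PI16 was the 1 of 5 fibroblast markers at 0, in liver, and the part of these cells was not tested.

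**Figure D4:**
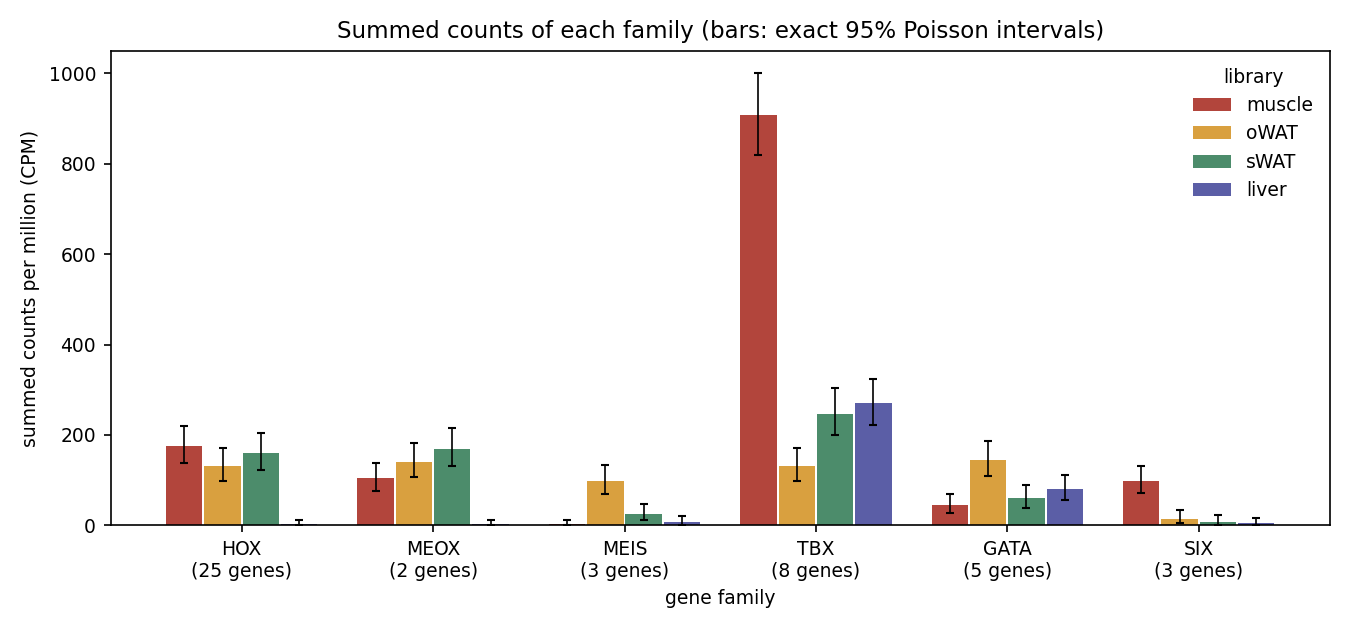
Summed CPM (vertical axis) of 6 families (horizontal axis, with the number of genes) in muscle, oWAT, sWAT and liver; error bars are exact 95% Poisson intervals. HOX and MEOX bars are near 0 in liver (2.29 CPM each), the MEIS bar is highest in oWAT (98.3 CPM), and the TBX bar of muscle reaches 907 CPM.

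T-box genes gave the largest counts of the set, through TBX15 and TBX3, and the tissues ordered them differently. TBX15, a T-box gene of body wall and limb mesenchyme that in mouse is also active in glycolytic muscle fibres, had 359 counts in muscle, 2 in oWAT, 24 in sWAT and 3 in liver. Between the fat libraries its ratio of oWAT to sWAT was 0.0806 (0.00924 to 0.325), and it was the 1 member called lower in oWAT than in sWAT. The call rate over all genes in that direction was 0.767%, 46 of 5997, against 1 of the 9 members with at least 10 counts in sWAT. Muscle exceeded oWAT 162-fold (44.5 to 1342) and liver 119-fold (40.4 to 580). sWAT exceeded liver 9.12-fold (2.77 to 47.3), a call lost with TMM scaling, which put the lower bound at 1.53. In oWAT and liver the counts were within the limit of 3 counts.

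TBX3, a T-box gene active in the embryonic liver and limb in mouse, had 113 counts in liver, against 37 in muscle, 45 in oWAT and 55 in sWAT. Liver was 3.07-fold over muscle (2.10 to 4.58), 2.28-fold over oWAT (1.60 to 3.29) and 1.80-fold over sWAT (1.295 to 2.54). By library totals the call held over muscle alone, and it was lost there when totals included the reads that name no gene (lower bound 1.98), whereas TMM and DESeq2 scaling called TBX3 in liver over all 3. TBX3 was the member with at least 37 counts in every library, so no tissue lacked it.

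TBX18, a gene of the epicardium and of vessel mural cells in mouse, had 2 counts in oWAT and 12 in sWAT, with 2 in muscle and 0 in liver. The ratio of oWAT to sWAT was 0.161 (0.0175 to 0.724), without a call, and sWAT was at least 4.56-fold over liver (lower bound 3.17, or 1.75 and no call with TMM scaling). TBX5, the forelimb gene, had 3 counts in sWAT alone. TBX2, TBX6, TBX19 and TBX21 had 2 counts or fewer in any library. Leaving out TBX3 and TBX15, the other 6 T-box genes summed to 5 counts in oWAT and 16 in sWAT, so TBX18 made up most of the difference between the fat libraries.

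The GATA genes differed by tissue: GATA4 had all its counts in liver, GATA5 most in oWAT and GATA2 most in both fat libraries and muscle. GATA4, which in mouse liver is known from sinusoidal endothelium and stellate cells, had 26 counts in liver, against 0 in muscle, oWAT and sWAT. It was the 1 member called higher in liver than in each other library, at least 8.71-fold over muscle, 7.86-fold over oWAT and 7.60-fold over sWAT (lower bounds 6.59, 5.95 and 5.75). Over all genes 10.8% of 4944 met that rule, and 1 of the 3 members with at least 10 liver counts. The sinusoidal marker STAB2 had 54 counts in liver, against 4 in oWAT and 0 in both muscle and sWAT. All 5 stellate cell markers had counts in liver, against 2 in muscle and 3 in each fat library, with LRAT (3 counts) and LHX2 (1 count) listed in liver alone. Their sum was 116.5 CPM in liver, against 536.5 in muscle, 375.5 in oWAT, 281 in sWAT. Outside liver RGS5, also a pericyte gene, led that sum. The part of either cell type in the GATA4 value was not tested. GATA6, close to GATA4 in sequence, had 3 counts in liver and 4 in oWAT, and 0 in muscle and sWAT.

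GATA5, a GATA factor of gut endoderm and heart lining, had 11 counts in oWAT and 0 in sWAT, with 1 each in muscle and liver. It was the 1 member called higher in oWAT than in sWAT, at least 3.55-fold (lower bound 2.43), where 1.43% of 6563 genes and 1 of the 8 members with at least 10 oWAT counts were called. With a 99% interval it was no longer called, and 11 counts lie just over the minimum. Over muscle GATA5 was 12.2-fold higher in oWAT (1.77 to 525) and over liver 12.1-fold (1.76 to 522), and neither was a call. GATA6 (4 in oWAT against 0 in sWAT) and GATA3 (4 against 1), the factor of T cells and innate lymphoid cells, were too low to separate the fat libraries. The T and innate lymphoid markers summed to 7 counts in oWAT and 4 in sWAT.

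GATA2, a factor of blood cell precursors, mast cells and endothelium that in mouse restrains fat cell formation, had 38 counts in oWAT, 22 in sWAT and 19 in muscle, against 4 in liver. It was 10.5-fold higher in oWAT than in liver (3.77 to 40.4) and 6.27-fold in sWAT (2.13 to 25.0); muscle over liver, 4.72-fold (1.57 to 19.1), was not called. With TMM scaling the lower bounds were 1.88 in oWAT and 1.18 in sWAT, and both calls were lost. oWAT over sWAT was 1.67 (0.964 to 2.97), so the fat libraries were not separated. Mast cell markers were sparse, with 10 counts in oWAT, 20 in sWAT, 6 in muscle and 2 in liver over 4 genes. The sum of GATA genes, 57 counts in oWAT against 35 in liver (1.80-fold, 1.16 to 2.82), turned to 0.895 with TMM scaling (0.577 to 1.40) and 0.905 with DESeq2 scaling.

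**Figure D5:**
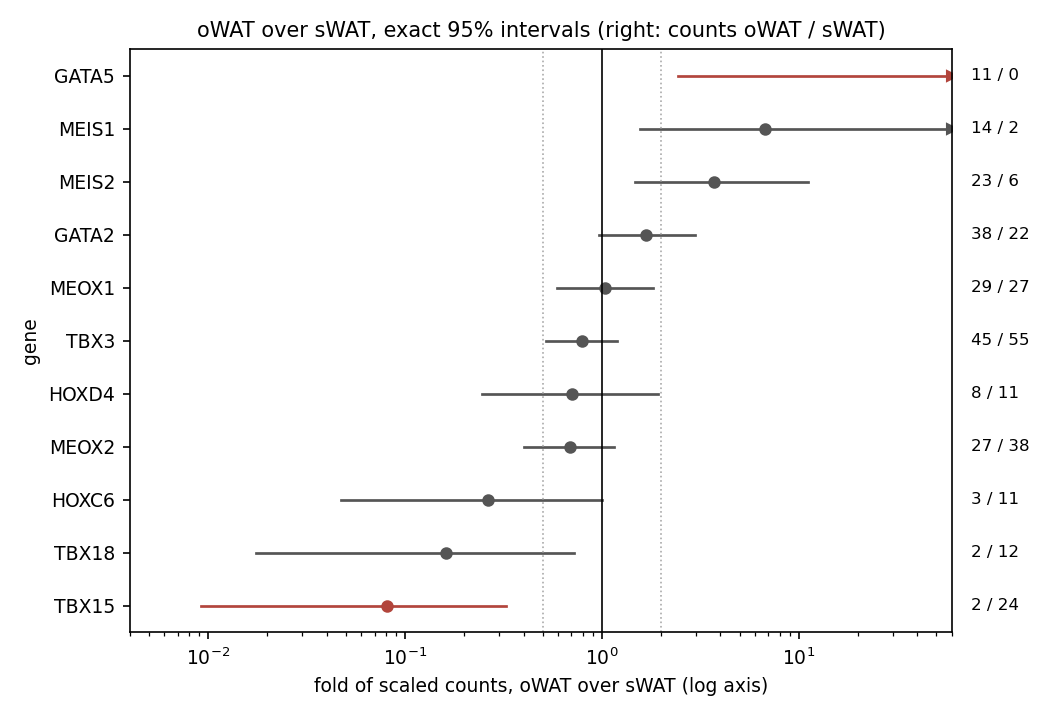
Fold of scaled counts in oWAT over sWAT (horizontal log axis) for 11 genes with at least 10 counts in either fat library, with exact 95% intervals; arrows mark intervals that run past the axis, dotted lines mark 2-fold either way, and counts stand at the right. In red are GATA5 (lower bound 2.43) and TBX15 (2 counts in oWAT, 24 in sWAT), the called genes.

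The sine oculis gene with most counts was highest in the muscle library. SIX4, which with its partner EYA proteins switches on muscle genes, had 41 counts in muscle, against 5 in oWAT, 2 in sWAT and 0 in liver. Muscle exceeded oWAT 7.40-fold (2.92 to 23.98), sWAT 17.9-fold (4.65 to 153) and liver at least 13.6-fold (lower bound 10.6). With TBX15 and HOXC10, SIX4 was 1 of the 3 members called higher in muscle than in each other library, of 10 with at least 10 muscle counts; over all genes 6.71% of 5809 met the rule. SIX5 had 2 counts or fewer in any library, and SIX2 had 1 count, in sWAT.

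PITX1, the hindlimb gene of the family, had 4 counts in muscle and 1 in oWAT, and PITX3 5 in muscle and 1 in oWAT, with 0 in sWAT and liver for both. Both had their highest count in muscle, too few to separate it from the other tissues by the call. Markers of myofibres (7 of 7 listed and 106400 CPM in muscle, 101 in oWAT, 112 in sWAT and 130 in liver, with NEB at 0 outside muscle) and of muscle stem cells and myoblasts (MYOD1 84 counts and PAX7 5 in muscle, 0 elsewhere) moved with SIX4, and their part was not tested.

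The remaining members were near the limit of counting. IRX1, an Iroquois homeobox gene, had 2 counts in oWAT and 8 in sWAT, a ratio of 0.242 (0.0250 to 1.21). EMX2, known from brain and urogenital development, had 2 in oWAT, 5 in sWAT and 1 in muscle. IRX3 and IRX4 had at most 1 count in a library, and SHOX2 had 1, in sWAT. IRX1 was also at least 3.06-fold higher in sWAT than in muscle (lower bound 1.96) and 3.04-fold than in liver (1.95), both at 0 counts. EMX2 was at least 1.90-fold higher in sWAT than in liver (exact lower bound 1.05), but with TMM scaling its lower bound fell to 0.577, below 1. None of these genes reached the 10 counts that a call needs.

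The called members were counted for each pairing of libraries. Over liver, 7 of 10 members with at least 10 counts were called in muscle (HOXC10, SIX4 and TBX15 among them), where 23% of 5809 genes were called. In oWAT 5 of 8 were called over liver, with 25.8% of 6563 genes, and in sWAT 7 of 9, with 24.2% of 5997 genes. With TMM scaling muscle kept 7 calls (16.1% of genes), while oWAT had 2 of 8 (9.95%) and sWAT 2 of 9 (11.8%). DESeq2 scaling gave the same member counts over liver. In muscle 4 of 10 were called over oWAT and 3 of 10 over sWAT, with 8.3% and 9.23% of genes. Against muscle, 2 of 8 were called in oWAT (11.4% of genes) and 0 of 9 in sWAT (11.2%). In liver 2 of 3 were called over muscle (17.7% of genes) and 1 of 3 each over oWAT and sWAT (12.9% and 13.6%). No member was called in both fat libraries over both muscle and liver (0 of 5; 4.22% of 5520 genes).

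Over the 24 members with at least 10 counts in the 4 libraries together, the median log2 ratio to liver, after adding 0.5 counts, was 2.56 in muscle, 2.85 in oWAT and 2.51 in sWAT, against 0.48, 0.98 and 0.75 over 10127 genes. Between oWAT and sWAT it was -0.05, against 0.14. TMM scaling moved the median of all genes by -0.44, -1.01 and -0.86 for muscle, oWAT and sWAT over liver and by -0.15 for oWAT over sWAT, to 0.04, -0.03, -0.11 and -0.01. The medians of the 24 members over liver were then 2.12, 1.84 and 1.65.

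Genes that work with these factors were read from fixed lists. Among 5 partners of the sine oculis factors with an entry were EYA1 and EYA4, coactivators of SIX4 and its relatives. Muscle had 30 counts of EYA1 and 37 of EYA4, with 0 of both in oWAT, sWAT and liver. They were the 2 list genes with at least 10 counts in muscle, and both were called higher there than in each other library. That rule was met by 6.71% of 5809 genes. EYA3 was even, with 8 counts in muscle and 5 in each other library. Muscle thus held SIX4 together with these EYA genes. The HOX cofactors PKNOX1, PKNOX2, TGIF1 and TGIF2, with 39 to 59 counts each over the 4 libraries, gave no call between oWAT and sWAT, and their median log2 ratio of oWAT to sWAT was 0.45. Over all genes, 1.43% were called higher in oWAT and 0.767% in sWAT.

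Retinoic acid induces HOX genes in the embryo, and its synthesis genes differed between the fat libraries. ALDH1A2, an enzyme that makes retinoic acid, had 194 counts in oWAT, against 7 in sWAT. ALDH1A3 had 309 in oWAT against 69 in sWAT, and ALDH1A1 310 against 98. These were the genes of the list called higher in oWAT, 3 of the 7 with at least 10 counts there, where 1.43% of all genes were called. The 11 genes of the list with at least 10 counts over the 4 libraries had a median log2 ratio of 1.13, against 0.14 over all genes. None of the 6 receptors was called between the fat libraries: in oWAT against sWAT, RXRB had 37 against 18 counts, RARG 21 against 9, RXRA 13 against 9, RARA 7 against 7, RXRG 5 against 1 and RARB 2 against 2. Polycomb and trithorax genes silence and maintain HOX loci. Of these, 0 of 13 with at least 10 counts in oWAT were called over sWAT, and 0 of 12 in sWAT over oWAT. These counts are near the shares over all genes, 1.43% and 0.767%. EZH1 (38 counts in muscle, 63 in oWAT, 34 in sWAT and 7 in liver) and CBX6 (54, 86, 71 and 3 in the same order) were called over liver in all 3, which is 2 of the 11 list genes with at least 10 counts in each of these libraries; over all genes the share was 11.8%. The list's median log2 ratio to liver was 0.76 in muscle, 1.37 in oWAT and 1.26 in sWAT, against 0.48, 0.98 and 0.75 over all genes. Of the GATA partners, ZFPM2 alone reached 10 counts, in sWAT, with 8 in oWAT. It was not called in sWAT over oWAT, where 0.767% of all genes were. The other genes of that list had too few counts for a call.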

How the data were processed

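Full-length cDNA of 4 pooled RNA samples, 1 per tissue, was read on the PacBio Sequel II platform, per the labels' protocols. Reads were aligned with minimap2 2.24, per the submitters' processing notes. The genome build, the annotation, strand use and the treatment of reads shared between overlapping genes are each not given in the sources used here. As deposited by the authors, the files hold raw counts per gene, as whole numbers without normalization, listing genes with at least 1 count; an unlisted gene was taken as 0. The entry for reads that name no gene, 14.3% to 19.5% of a file, was left out of totals. The oWAT and sWAT groups follow the labels, as the file names abbreviate these tissues otherwise.

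Members were matched by symbol; 56 of the 57 matched RefSeq's gene table (all but TBX19), and 28 further symbols of these families have no entry here and were not analysed. Folds of scaled counts carry exact 95% Clopper-Pearson intervals; these and the limit of 3 counts cover counting error only. As each library pools 5 animals, the spread between animals is unknown, and no p-values were computed. Calls were made on all 13982 genes. Named genes are the members called in any pairing or with at least 10 counts in a library; others are given by family, and from the fixed lists, the 4 genes with most counts, with EZH1, the retinoid receptors, KDR, OSR2, BNC1, BNC2, LHX2, ONECUT1, FOXA3, NEB and STAB2 added after their values were seen; some genes are not reported here, though they enter the sums and counts. Members, lists and rules were chosen with earlier results of these data known.

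Alternatives were edgeR 4.0.16 TMM factors and DESeq2 1.42.0 size factors (R 4.3.3; used for scaling alone), other totals, minimum counts of 5, 20 or none, a 99% interval and bounds of 1 and 4. The calling rule was tested on simulated data with counting error alone and changes placed in genes with at least 20 expected counts. That setting does not cover genes with few counts, as most members are. Computation was done in Python 3.11.15 (SciPy 1.17.1, pandas 2.3.3, NumPy 2.4.6) and figures in matplotlib 3.10.9.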

Additional observations from a re-analysis of the deposited data

How the results depend on the processing

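The 6 counts of called members were small, so single genes moved them. Between oWAT and sWAT, the 1 member called higher in oWAT (GATA5) became 0 with at least 20 counts, with a 99% interval and with a bound of 4. It became 3 with a bound of 1, which added MEIS1 and MEIS2 and called 16.1% of 6563 genes. The 1 member called higher in sWAT (TBX15) became 0 with a bound of 4 and 3 with a bound of 1, which added HOXC6 and TBX18. Of 5997 genes, 8.99% passed that bound of 1. The 1 member called in liver over each other library (GATA4) became 2 with TMM factors, DESeq2 size factors and a bound of 1, TBX3 being added each time. These settings called 15.6%, 15.4% and 16.9% of 4944 genes. The 3 called in muscle over each other library became 1 (TBX15) with a bound of 4, which called 3.99% of 5809 genes. They became 2 with at least 20 counts (9.55% of genes) and with a 99% interval (5.84%), HOXC10 being lost both times. The other alternatives left these counts within 1.5 times. The count for both WAT libraries over liver and muscle was 0 in all 10 alternatives, which called 0.779% to 21.1% of the genes tested. That for muscle, oWAT and sWAT over liver was 2 in all but the bound of 1, which gave 3 and called 32.8% of 4616 genes.

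Of 34 called folds, 8 lost the call under TMM factors and 8 under DESeq2 size factors, in each case folds of oWAT or sWAT over liver; totals without the 10 most abundant genes removed 1 (GATA2 in sWAT over liver), as did totals with the reads that name no gene (TBX3). No fold of these 34 turned its direction, but they had been picked for lower bounds above 2, so this outcome says little. Some folds without a call did turn with TMM scaling. Examples are MEOX1 in oWAT over sWAT, from 1.04 to 0.937, and MEOX2 in muscle over oWAT, from 0.869 to 1.28. Depth limits most members: 40 of 57 had under 10 counts in every library and could not be called. No paired analysis was possible because each tissue has 1 library. Differences between animals cannot be seen in pooled RNA.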

Other observations

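Other regulators of position and mesenchyme, a fixed list of 45 genes of which 28 had an entry, split between liver and the other tissues. PROX1, ONECUT1, HNF4A and FOXA3, transcription factors of hepatocytes, were called higher in liver than in each other library, where 10.8% of all genes were; HNF4A had 96 counts in liver and 0 in muscle, oWAT and sWAT. OSR1, OSR2 and BNC2, factors of connective tissue, were called in muscle, oWAT and sWAT over liver, where all 3 had 0 counts; they were the 3 genes of the list with at least 10 counts in each of those tissues, and 11.8% of all genes met the rule. OSR1 had 78 counts in oWAT and 12 in sWAT, with 16 in muscle, and was called higher in oWAT together with WT1 and BNC1, which are mesothelial, 3 of the 6 with at least 10 counts in oWAT (1.43% of all genes). OSR2 ran the other way, with 13 counts in oWAT and 30 in sWAT, and 10 in muscle, without a call. The list's median log2 ratio of oWAT to sWAT was -0.05 over 14 measured genes, against 0.14 over all genes.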
